A study of Canis lupus familiaris with 14 samples.

Results

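The adipokines and fatty acid handling genes examined here were FABP4, ADIPOQ, LEP, LPL, PPARG and SCD5, and they were followed from normal bone to osteosarcoma in the same dogs. Members were chosen by name, and a name was tied to an Ensembl gene identifier of the count table through the symbol column of the study's supplementary tables. Of the 6 listed genes, 5 had an identifier, out of 27655 genes with at least 1 count and 30951 genes in the table. ADIPOQ, which encodes adiponectin, had no identifier in that column and was not analysed here. The series holds 14 poly(A) RNA sequencing libraries, 1 from the normal bone and 1 from the osteosarcoma of each of 7 pet dogs, named A to G. Bone came from phalanx P2 in every dog. By the study's account, RNA integrity was lowest in the bone of dog B and the tumor of dog A. The effect of RNA integrity on the levels below was not tested. The tumors came from the left distal radius (dogs A, C and E), the right distal radius (dog F), the left distal femur (dog B), the left proximal humerus (dog D) and the right distal tibia (dog G). Dogs A and F were Golden Retrievers, dogs D and G Greyhounds, dog B a Rottweiler, dog C a Doberman Pinscher and dog E a Great Pyranees, as the breed is spelled in the labels. According to the study, dogs E and G were spayed females and the others castrated males. Dog D was the oldest, and all samples were taken before chemotherapy. RNA was extracted from bone and from tumor by different procedures, and the skeletal site also differed within each dog, so that tissue, site and extraction cannot be told apart in any comparison below.

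White fat cells store fatty acids as triglyceride. Bone marrow holds fat cells as well, and according to the study's methods the bone was cleared of marrow before RNA extraction. Lipoprotein lipase, the product of LPL, releases fatty acids from circulating lipoproteins at the capillary wall; the fatty acid binding protein FABP4 carries them inside the cell; and stearoyl-CoA desaturases such as SCD and SCD5 add a double bond to saturated chains. PPARG is the nuclear receptor that drives the formation of fat cells and switches on FABP4, LPL and ADIPOQ. Leptin, the product of LEP, and adiponectin are hormones that fat cells release. LEP and ADIPOQ are made mainly by fat cells and FABP4 is very abundant there, although macrophages and capillary endothelium also make FABP4. LPL, PPARG and SCD5 are used in other cell types too, LPL in muscle and macrophages, PPARG in macrophages and osteoclasts, and SCD5 in brain and pancreas. The question put to the data was how far each gene fell in tumor and whether LPL, PPARG and SCD5 fell less than FABP4 and LEP.

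The libraries held 22564544 to 34479429 counts in bone and 18650945 to 32887213 in tumor. Levels below are CPM values (library-size-scaled counts) after trimmed-mean (TMM) scaling, with 1 library per tissue and dog, and they are compared between libraries for 1 gene and never between genes, since gene lengths were not used here. The bone markers SOST and MEPE, made by osteocytes, were detected in the bone of all 7 dogs, and the summed level of 5 osteocyte markers ran from 273 to 4649 CPM in bone and from 3.90 to 467 CPM in tumor. A fold change was taken to pass when its edgeR adjusted p was below 0.05, its mean normalised count was above 10 and it exceeded 2-fold. By these thresholds 1.79% of the genes tested were lower in tumor and 1.35% were higher.

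All 5 members with an identifier passed as lower in tumor, beside 1.79% of all genes tested and 18.8% of the 2292 identifiers with a name. Each member was lower in 7 of 7 dogs, a pattern that 4.86% of the genes tested showed. For each, the 7 tumor libraries lay below all 7 bone libraries, as for 1.5% of the genes tested. Names belong largely to genes that changed in these libraries, and the shares of 4.86% and 1.5% are over all genes, named or not. The fitted falls ordered the genes as FABP4, LEP, SCD5, LPL and PPARG, from 23.7-fold to 2.30-fold. The order of FABP4 and LEP was not stable: without dog F their log2 fold changes were -4.05 and -4.29, and without the dog term -4.16 and -4.94. Because the genes were proposed with earlier results of these libraries known, these counts describe the members and are not an independent test of them. In bulk tissue, fewer fat cells and less RNA per fat cell cannot be told apart.

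**Figure D1:**
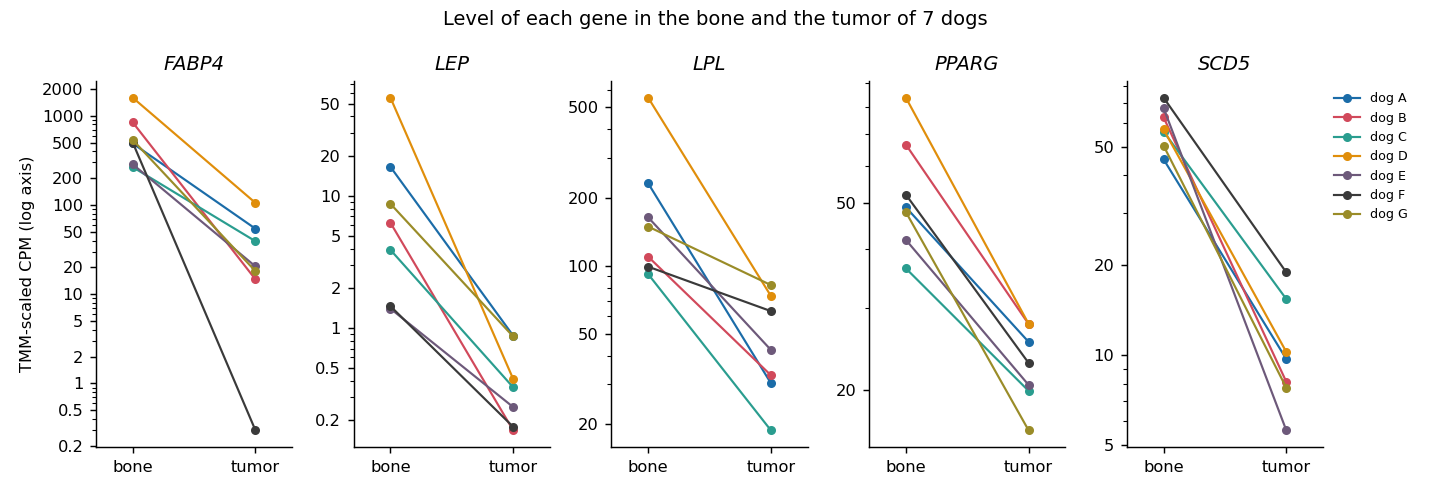
TMM-scaled CPM (log axis, separate scale for each gene) of FABP4, LEP, LPL, PPARG and SCD5 in bone and tumor, with a line joining the paired libraries of each of 7 dogs. Every line falls, and the FABP4 line of dog F ends at 0.298 CPM while the other tumors lie between 14.7 and 106 CPM.

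FABP4 (ENSCAFG00000025410), the fatty acid carrier of fat cells, was measured in bone at 490, 844, 266, 1597, 286, 501 and 537 CPM, taking dogs A to G in turn. In the tumors it stood at 54.2, 14.7, 39.3, 106, 20.5, 0.298 and 18.1 CPM in the same order. The lowest bone library thus lay above the highest tumor library, and the tumor of dog F lay far below the other 6. The mean was 646 ± 461 CPM in bone and 36.1 ± 35.3 CPM in tumor (SD, n = 7 each), and the fitted log2 fold change was -4.57 (SE 0.81, edgeR adjusted p = 0.0147). In dog F the tumor held 10 FABP4 counts, so that the 1680-fold difference from its bone had a 95% exact Poisson interval of 913 to 3503 from the tumor count alone; intervals here cover counting error only. Without dog F the log2 fold change was -4.05 with an adjusted p of 0.00768.

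The tables name a pair of loci after the same protein as FABP4. LOC100686507 (ENSCAFG00000018873), named as adipocyte-like fatty acid-binding protein, and LOC491723 (ENSCAFG00000011192), named as an FABP4 pseudogene, may share reads with it. Their sequences were not compared here, and how the counting treated shared reads is not given in the sources used here. LOC100686507 took 0.889% to 1.27% of its joint counts with FABP4 in bone and 0.676% to 1.32% in 6 tumors. In the tumor of dog F it took 33.3%, 5 counts beside the 10 of FABP4. LOC491723 took 0.178% to 0.224% in bone and at most 0.230% in tumor. Outside dog F the share of LOC100686507 therefore stayed within 0.676% to 1.32% while FABP4 itself ranged from 441 to 60417 counts. Their own log2 fold changes, -4.16 for LOC100686507 (edgeR adjusted p = 0.00286) and -4.35 for LOC491723 (adjusted p = 0.0108), are uncertain for that reason, as is the split of counts between the loci.

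**Figure D2:**
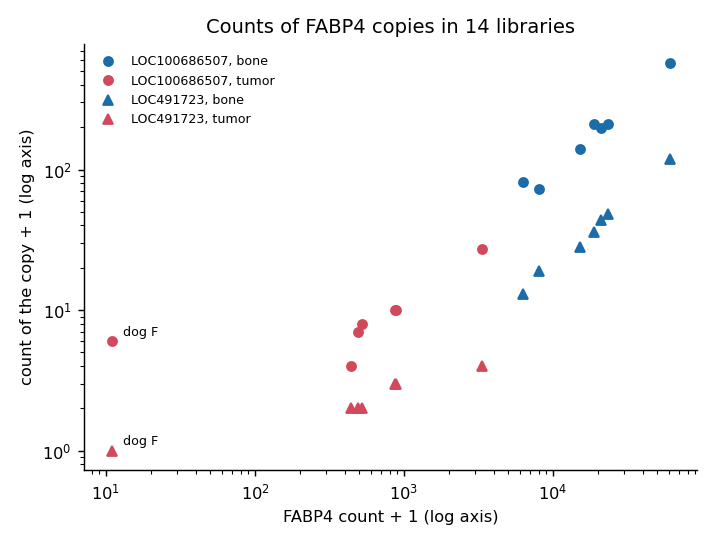
Count of each copy plus 1 against the FABP4 count plus 1 (both log axes) in 7 bone and 7 tumor libraries; circles are LOC100686507 and triangles LOC491723. The points rise together except for the circle of the tumor of dog F, where 5 counts of the copy stand beside 10 of FABP4.

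LEP (ENSCAFG00000001672), the gene of the hormone leptin, was low and very uneven in bone. Its level there was 16.6, 6.27, 3.91, 55.4, 1.40, 1.46 and 8.72 CPM in dogs A to G. The highest bone was 39.5-fold above the lowest, and dog D stood well above the rest. The tumors held 0.877, 0.168, 0.356, 0.413, 0.253, 0.179 and 0.864 CPM, which are only 6 to 21 counts per library. The means were 13.4 ± 19.3 CPM in bone and 0.444 ± 0.304 CPM in tumor (SD, n = 7 each), with a log2 fold change of -4.09 (SE 0.55, edgeR adjusted p = 0.00494). Within dogs the difference ran from 5.55-fold in dog E (95% exact Poisson interval of the tumor count 2.55 to 15.1) to 134-fold in dog D (78.6 to 252), and these intervals leave out the error of the bone count and of the preparation.

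LPL (ENSCAFG00000010161), whose enzyme releases fatty acids from lipoproteins, stood in bone at 231, 110, 92.0, 552, 164, 99.2 and 149 CPM in dogs A to G. In tumor the levels were 30.4, 32.9, 18.8, 73.7, 42.6, 63.1 and 82.3 CPM. Bone and tumor did not overlap, but the gap between the lowest bone, that of dog C, and the highest tumor, that of dog G, was small. The mean fell from 200 ± 163 to 49.1 ± 24.1 CPM (SD, n = 7 each), a log2 fold change of -1.91 (SE 0.31, edgeR adjusted p = 0.00988). The within-dog ratio of bone to tumor was uneven, from 1.57 in dog F and 1.81 in dog G to 7.49 in dog D and 7.62 in dog A.

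PPARG (ENSCAFG00000004991), the nuclear receptor of fat cell formation, had the smallest fitted fall and the most even one. Bone levels were 49.0, 66.6, 36.3, 83.7, 41.8, 52.1 and 47.9 CPM in dogs A to G, and tumor levels were 25.4, 27.7, 19.96, 27.7, 20.5, 22.9 and 16.5 CPM. The tumors lay within 1.68-fold of each other and below every bone. The mean fell from 53.9 ± 16.2 to 22.9 ± 4.24 CPM (SD, n = 7 each), with a log2 fold change of -1.20 (SE 0.15, edgeR adjusted p = 0.00419). The within-dog ratio of bone to tumor stayed between 1.82 in dog C and 3.02 in dog D.

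SCD5 (ENSCAFG00000028708), a stearoyl-CoA desaturase, was the most even member in bone, with 45.3, 62.6, 56.1, 57.1, 67.3, 72.9 and 50.3 CPM in dogs A to G, a range of 1.61-fold. Its tumor levels were 9.71, 8.14, 15.4, 10.3, 5.60, 18.9 and 7.78 CPM. Dog D, which had the highest bone level of the other 4 members, lay near the middle for SCD5. The mean fell from 58.8 ± 9.57 to 10.8 ± 4.70 CPM (SD, n = 7 each), with a log2 fold change of -2.53 (SE 0.23, edgeR adjusted p = 0.00195). The smallest within-dog ratio of bone to tumor was 3.64, in dog C, and the largest 12.02, in dog E.

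Its paralog SCD (ENSCAFG00000009663), the main desaturase of fat and liver, also fell, by 1.96 on the log2 scale (SE 0.44, edgeR adjusted p = 0.0392), but with overlap between tissues. SCD ran from 58.8 to 592 CPM in bone and from 17.8 to 129 CPM in tumor. In dog F it stood at 145 CPM in bone and 129 in tumor, and in dog C at 136 and 96.2 CPM, whereas SCD5 fell at least 3.64-fold in every dog. FABP5 (ENSCAFG00000031706), the paralog of FABP4 that skin and macrophages also make, was lower in the tumor of 7 of 7 dogs but did not pass (log2 fold change -0.72, SE 0.17, adjusted p = 0.0501), with 31.9 to 140 CPM in bone and 23.8 to 65.1 CPM in tumor. LOC106557533, named after the same protein, took 7.84% to 10.1% of the joint counts in the 14 libraries.

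Whether the genes used outside fat cells fell less was tested within dogs, as the log2 ratio of tumor to bone of LPL, PPARG or SCD5 minus that of FABP4 or LEP. A scaling factor of a library cancels in such a difference except for the 0.1 CPM added before the logarithm. There were 6 pairs of genes, each tested with a two-sided exact sign-flip permutation test over 7 dogs, whose smallest possible p is 0.0156, and p was adjusted over the 6 pairs. In 5 of the 6 pairs the gene used outside fat cells fell less in 7 of 7 dogs.

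Against FABP4, the fall was smaller for all 3 genes. The difference was 3.05 ± 3.31 for LPL, 3.75 ± 2.53 for PPARG and 2.43 ± 2.76 for SCD5 (log2, SD, n = 7 dogs; exact permutation p = 0.0156, adjusted p = 0.0188 in each case). Dog F, with its 10 FABP4 counts, gave the largest difference each time. Without dog F the differences were 1.95 for LPL, 2.86 for PPARG and 1.44 for SCD5, each with the same sign in 6 of 6 dogs and an exact permutation p of 0.03125, the smallest that 6 dogs allow. The smallest single differences were 0.25 for LPL in dog A and 0.23 for SCD5 in dog E, so in those dogs the genes fell by almost the same amount as FABP4.

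Against LEP, PPARG fell less by 2.56 ± 1.44 and LPL by 1.86 ± 1.26 (log2, SD, n = 7 dogs; exact permutation p = 0.0156 and adjusted p = 0.0188 for both). SCD5 did not pass: its difference from LEP was 1.24 ± 1.74, positive in 6 of 7 dogs, with an exact permutation p of 0.0938. The exception was dog E, where SCD5 fell further than LEP by 1.47 on the log2 scale. Without dog E the difference was 1.69 with an adjusted p of 0.03125, the smallest that 6 dogs allow and reached whenever all signs match. With any other single dog left out, the adjusted exact permutation p was 0.125 to 0.1875. The pairs with LEP depended on how its low tumor counts were handled. With 0.5 CPM added in place of 0.1 the LPL difference was 1.10 (adjusted p = 0.0563). With the same addition, that of PPARG was 1.80 (adjusted p = 0.0234) and that of SCD5 0.52 (adjusted p = 0.484). On variance-stabilized counts the LPL difference was -0.09, that of PPARG 0.64 (adjusted p = 0.234) and that of SCD5 -0.39. The 3 pairs with FABP4 kept their sign and their side of the threshold under both changes.

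**Figure D3:**
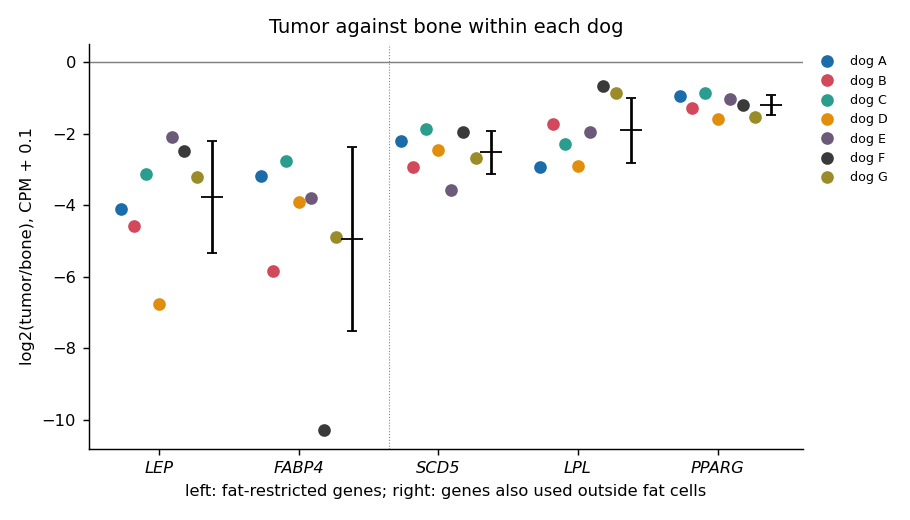
Log2 ratio of tumor to bone (CPM + 0.1) in each of 7 dogs for LEP and FABP4 (left of the dotted line) and SCD5, LPL and PPARG (right of it); the black bar beside each gene is the mean with its SD. PPARG points stay between -1.59 and -0.86, whereas FABP4 reaches -10.30 in dog F.

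The order of the falls within a dog was not the same throughout. PPARG fell least in dogs A, B, C, D and E, and LPL fell least in dogs F and G. LEP fell most in dogs A, C and D, and FABP4 in dogs B, E, F and G. SCD5 fell less than LPL in dogs A, C and D and more than LPL in dogs B, E, F and G. The order of SCD5 and LPL was not tested.

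A measure of fat in each library came from 9 further fat cell genes: PLIN1, PLIN4, CIDEC, CIDEA, LIPE, GPD1, PCK1, AQP7 and TRARG1, genes of the lipid droplet, of its breakdown and of glycerol and glucose handling. All 9 had an identifier and passed as lower in tumor, beside 1.79% of all genes tested and 18.8% of all named identifiers. Since names belong largely to genes that changed in these libraries, this count is not independent evidence of the markers' direction. Their sum was lower in 7 of 7 dogs, at 123 to 1424 CPM in bone and 14.7 to 113 CPM in tumor. The sum was lowest in dog F and highest in dog D in both tissues. PLIN1 (ENSCAFG00000011986), which coats the lipid droplet, fell from 23.5 to 447 CPM in bone to 0.786 to 20.7 CPM in tumor, a log2 fold change of -4.62 (SE 0.38, edgeR adjusted p = 0.00195). CIDEC, which enlarges lipid droplets, had a log2 fold change of -5.06 (adjusted p = 0.00195), and AQP7, a glycerol channel, one of -3.59 (adjusted p = 0.00195). PLIN4 changed by -3.53 (adjusted p = 0.00205) and LIPE, the hormone-sensitive lipase, by -2.24 (adjusted p = 0.00252). TRARG1 was at 0 counts in 5 tumors, and CIDEA and PCK1 in 1 tumor each.

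The members fell into different places among these markers. The markers' names belong largely to genes that changed in these libraries, so the size of their falls is not an independent scale. The mean within-dog fall of FABP4 was exceeded by 1 of the 9 markers and that of LEP by 5, while without dog F the count was 4 for both. Over the 7 dogs, all 9 had a larger mean fall than LPL and than PPARG, and 8 a larger one than SCD5, counts that were the same without dog F. FABP4 fell less than the median marker in 3 of 7 dogs and LEP in 6. PPARG fell less than 8 of the 9 markers in every dog, and LPL less than 6. No marker had a larger fall than SCD5, LEP or FABP4 in all 7 dogs.

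Across dogs, the level of each member was set against the marker sum within bone and within tumor, on log2 values, which made 10 relations. LEP in bone followed the marker sum (Pearson r = 0.97, exact permutation p = 0.000794, adjusted p = 0.00794; Spearman rho = 0.93, adjusted p = 0.0615; n = 7 dogs). LEP rose by 1.44 on the log2 scale for each doubling of the markers, and without dogs A and D, farthest from the median marker sum, r was 0.96 (n = 5, exact permutation p = 0.0333, adjusted p = 0.333). It was the only relation of the 10 to pass after adjustment, by r and not by rho. With 6 dogs it did not pass without dog A, C or D (adjusted p = 0.0556 each; r = 0.942 to 0.973). LPL in bone had r = 0.87 (exact permutation p = 0.0131, adjusted p = 0.0655; rho = 0.68, adjusted p = 0.333), and r was -0.08 without dogs A and D, so that it rested on those 2 dogs. FABP4 had r = 0.70 in bone (adjusted exact permutation p = 0.214) and 0.79 in tumor (exact permutation p = 0.0435, adjusted p = 0.145; rho = 0.89, adjusted p = 0.0615). PPARG had r = 0.63 in bone and 0.58 in tumor, with adjusted exact permutation p of 0.239 and 0.253. Without dog D, r in bone was 0.26 for FABP4 and 0.12 for PPARG, so that these values rested on that dog, and r of PPARG in tumor was 0.38 (0.10 without dogs A and D). Against PLIN1 alone, r of FABP4 in tumor was 0.51. Against the marker sum it ran from 0.77 to 0.91 with each dog left out, and none of these passed after adjustment.

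SCD5 in bone ran the other way, with r = -0.61 and rho = -0.61 (adjusted exact permutation p = 0.239 for r and 0.333 for rho), a relation that did not pass. Without dog D, r was -0.90 (n = 6, exact permutation p = 0.0111, adjusted p = 0.0556). Its highest bone level, in dog F, stood beside the lowest marker sum, and its lowest, in dog A, beside the second highest. In tumor, LEP had r = 0.37 (adjusted exact permutation p = 0.528; 0.17 without dog F, 0.19 without dog A and 0.68 without dog G), LPL r = 0.004 (adjusted p = 0.993) and SCD5 r = -0.19 (adjusted p = 0.769). Differences between bone and tumor in these relations were not tested.

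**Figure D4:**
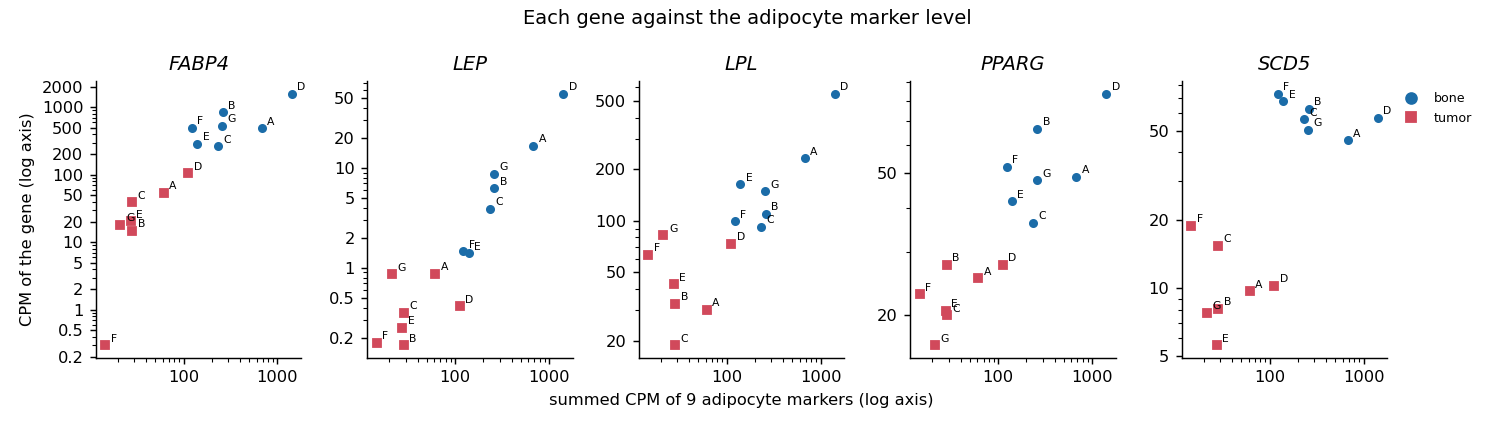
CPM of each member (log axis) against the summed CPM of 9 adipocyte markers (log axis) in bone (circles) and tumor (squares), with dogs by letter. LEP in bone lies close to a line over a 39.5-fold range, while SCD5 in bone stays within 1.61-fold.

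The other lipid genes came from 4 lists, of which 28 of 85 names had an identifier. They gave 29 identifiers, since FADS1, a fatty acid desaturase, had 2. Of the 29, 9 passed as lower in tumor, 1 as higher and 19 did not pass, beside 1.79% lower and 1.35% higher among all genes tested. DESeq2 gave 18 lower and 6 higher, edgeR without the dog term 8 lower and 4 higher, and edgeR without dog D 6 lower. Names in the symbol column belong largely to genes that the study itself had found to change, and 18.8% of all 2292 named identifiers passed as lower and 15.5% as higher, so the shares are not shares of whole pathways. The median log2 fold change was -0.05 over all genes tested and -0.80 over the named ones.

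Of the genes that clear lipoprotein triglyceride and take up fatty acids, 8 of 20 had an identifier, 2 passed as lower and 0 as higher, and the median log2 fold change was -0.88. GPIHBP1 (ENSCAFG00000028810), which holds lipoprotein lipase on the capillary wall, fell in every dog from 41.3 to 102.8 CPM in bone to 4.57 to 21.5 CPM in tumor (log2 fold change -2.52, SE 0.32, edgeR adjusted p = 0.00413). CD36, a fatty acid transporter of fat cells, endothelium and macrophages, fell from 75.1 to 361 CPM to 26.3 to 66.7 CPM (-2.03, SE 0.22, adjusted p = 0.00286). The bone and tumor ranges did not overlap for either gene. ANGPTL4, an inhibitor of lipoprotein lipase, was at -1.04 (adjusted p = 0.180), and LIPG, an endothelial lipase, at 2.37 (adjusted p = 0.171), neither of which passed. Of 13 endothelial markers 4 had an identifier, and 2 of these passed as lower, beside 18.8% of all named identifiers (CLDN5, -2.05, adjusted p = 0.0376, and EGFL7, -1.49, adjusted p = 0.0115), while EMCN (-0.97, adjusted p = 0.0691) and SOX17 (-1.47, adjusted p = 0.0946) did not; the sum of the 4 ran from 317 to 585 CPM in bone and from 52.0 to 214 CPM in tumor, with none at 0. Their part in the falls of LPL, FABP4, GPIHBP1 and CD36 was not tested.

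Of the genes for fatty acid synthesis, desaturation and esterification, 7 of 21 names had an identifier, and 3 of 8 identifiers passed as lower and 0 as higher, with a median log2 fold change of -1.29. Beside SCD these were MLXIPL, a carbohydrate-responsive transcription factor (-2.84, SE 0.54, edgeR adjusted p = 0.0181), and DGAT2, which makes triglyceride (-2.02, SE 0.40, adjusted p = 0.0214). DGAT2 was lower in 6 of 7 dogs, and both genes overlapped between tissues. ACLY, which makes cytosolic acetyl-CoA, was at 0.70 (adjusted p = 0.0730), and the 2 identifiers of FADS1 at 1.22 (adjusted p = 0.0999) and 1.27 (adjusted p = 0.114), higher in 6 of 7 dogs and not past the threshold.

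Of the nuclear receptors and regulators of fat cell formation, 4 of 20 had an identifier, 1 passed as lower and 0 as higher, with a median log2 fold change of -1.32. KLF15, a transcription factor of fat and muscle metabolism, fell in all dogs, from 16.6 to 35.2 CPM in bone to 1.16 to 5.14 CPM in tumor (-3.15, SE 0.29, edgeR adjusted p = 0.00195). RXRA, the partner receptor with which PPARG binds DNA, was at -0.57 (SE 0.14, adjusted p = 0.0528) and PPARA at -1.003 (SE 0.27, adjusted p = 0.0752). Both were lower in 7 of 7 dogs without passing.

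Of the adipokines and their receptors, 9 of 24 had an identifier, 3 passed as lower and 1 as higher, with a median log2 fold change of -2.35. LEPR (ENSCAFG00000018600), the leptin receptor, fell by 3.13 on the log2 scale (SE 0.63, edgeR adjusted p = 0.0250). Its bone levels were 162.4, 100.4, 95.4, 198, 182, 148 and 36.5 CPM in dogs A to G, and its tumor levels 3.38, 2.11, 57.7, 74.1, 18.5, 26.8 and 3.83 CPM, so that the tumors of dogs C and D overlapped the lowest bone. In dog C LEPR was only 1.66-fold lower in tumor, and in dog A 48.0-fold. AGT, which encodes angiotensinogen, was at -5.60 (SE 0.81, adjusted p = 0.00623), and RETN, resistin, at -2.35 (SE 0.42, adjusted p = 0.0145). CCL2, a chemokine for monocytes, rose (2.37, SE 0.34, adjusted p = 0.00614) and was higher in 7 of 7 dogs, as for 4.39% of the genes tested.

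**Figure D5:**
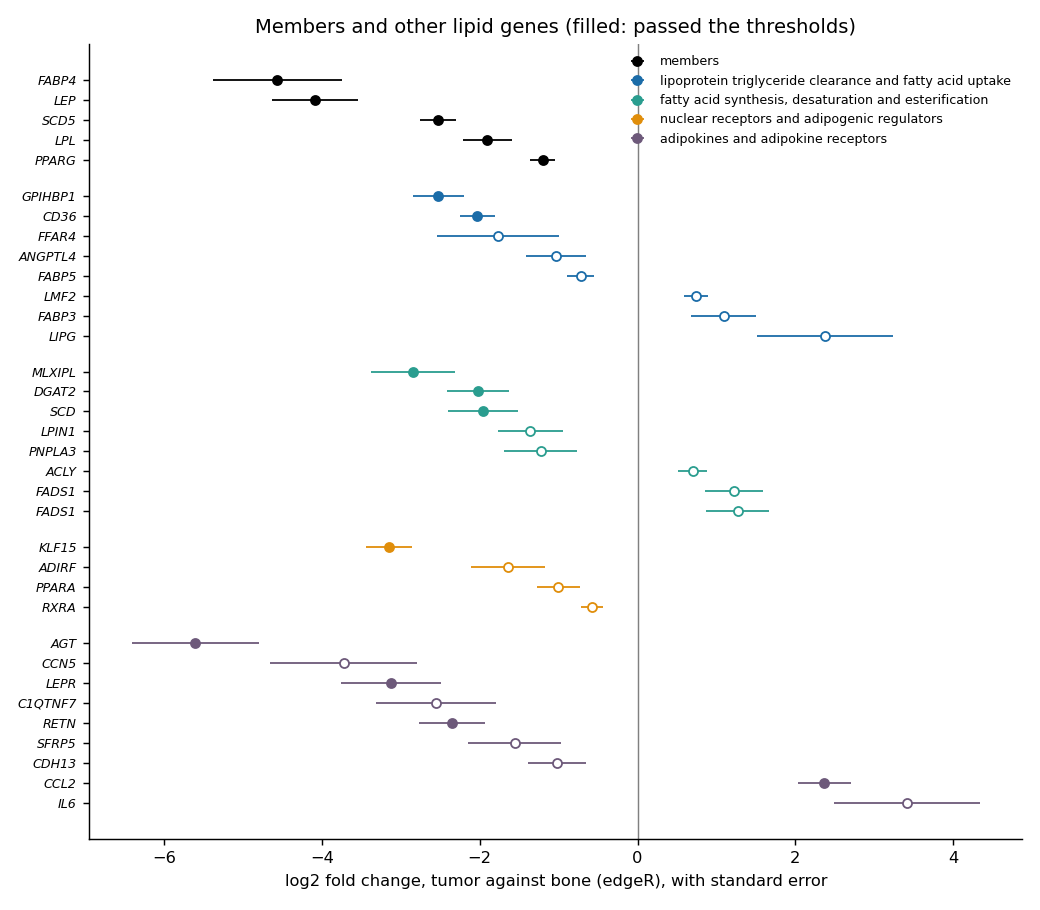
Log2 fold change of tumor against bone with its standard error (edgeR, 7 dogs) for the 5 members and 29 further identifiers in 4 lists; filled points passed the thresholds. The members and 9 others are filled left of 0, and CCL2 is filled right of 0.

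For each member, the 3 named genes most like it were taken by Pearson r of log2 levels over 14 libraries after the mean of each tissue was removed, among 2095 candidates. Libraries share their depth and tissue makeup, so these values are descriptions. LEP was most like LIPE (r = 0.91), DHRS7 (0.86) and ANXA2 (0.81), and without dog F the values were 0.92, 0.87 and 0.84. PPARG was most like FABP5 (0.88), the FABP5 copy LOC106557533 (0.87) and ABTB1 (0.80). SCD5 was most like TMEM33 (0.88), FMN1 (0.84) and CENPP (0.83), although within bone alone r with CENPP was -0.23, against 0.98 within tumor. LPL, with the lowest values, was most like WDR88 (0.76), SDR16C5 (0.75) and SYNCRIP (0.72).

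FABP4 was most like CBX7 (r = 0.88), ACP5 (0.86), an acid phosphatase of osteoclasts, and DPP4 (0.85). These values rested on dog F: over the 12 libraries of the other dogs they were 0.53, 0.42 and 0.51. They also came from the tumors: within bone r was 0.43 with CBX7, -0.37 with ACP5 and -0.10 with DPP4, and within tumor 0.93, 0.97 and 0.93. ACP5 stood at 6.83 CPM in the tumor of dog F and at 342 to 3932 CPM in the other 6 tumors. The 8 osteoclast markers with an identifier, of 9, summed to 228 CPM in the tumor of dog F, to 1243 to 21638 CPM in the other tumors and to 4230 to 18829 CPM in bone. Tumor D was highest and tumor F lowest for FABP4, for the osteoclast markers and for the adipocyte markers. OSCAR was at 0 counts in the tumor of dog F and CALCR in that of dog A. Of the 8 osteoclast identifiers, 1 passed as lower, CALCR (-4.79, edgeR adjusted p = 0.00561), a share of 12.5% beside the 18.8% of all named identifiers, and the part of osteoclasts in the FABP4 level was not tested.

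PPARG is used in osteoclasts too. In the tumor of dog F, where the osteoclast sum was lowest, PPARG stood at 22.9 CPM, within the 16.5 to 27.7 CPM of the other tumors. The relation of PPARG to the osteoclast sum was not tested. For macrophages and muscle few markers had an identifier. Of 12 macrophage markers only CD5L had an identifier, and it was higher in the tumor of 7 of 7 dogs (log2 fold change 4.04, edgeR adjusted p = 0.0331), at 0 to 1.16 CPM in bone and 0.149 to 102 CPM in tumor. Of 10 skeletal muscle markers 4 had an identifier and none passed by edgeR; their sum was 4.23 to 28.7 CPM in bone and 15.3 to 240 CPM in tumor, where it was the higher of the pair in 6 of 7 dogs, with ACTA1 at 0 counts in the bone of dog E and MYL1 in 4 tumors. Of 7 osteoblast markers 2 had an identifier, and both passed as lower, BGLAP (-2.64, adjusted p = 0.0117) and SPP1 (-2.68, adjusted p = 0.0277). Of the 5 osteocyte markers 2 passed as lower, SOST (-6.93, adjusted p = 0.0109) and MEPE (-7.39, adjusted p = 0.0153), while DMP1 (-3.73, adjusted p = 0.0516), PHEX (-2.33, adjusted p = 0.0849) and FGF23 (-2.71, adjusted p = 0.407) did not. The osteoblast and osteocyte counts stand beside the 18.8% of all named identifiers that passed as lower. Names belong largely to genes that changed in these libraries. The part of macrophages, muscle, osteoblasts and osteocytes in the members' levels was not tested.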

How the data were processed

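The authors trimmed 50 bp paired reads (Trimmomatic), aligned them to CanFam3.1 with HISAT2 2.2.1 and made the deposited whole-number counts per Ensembl gene with StringTie 1.3.3; strand and multi-mapped reads are not given in the sources used here. Counts were tested with edgeR 4.0.16 (R 4.3.3; quasi-likelihood, TMM scaling, genes with at least 1 count, terms for dog and tissue, Benjamini-Hochberg adjustment over 27655 genes). The dog is the pair, as the sample titles give it. Deviations from the tissue mean had r = 0.073 to 0.164 between same-dog libraries (15566 genes). Libraries of different dogs were not compared in this way, so these values do not test the pairing. Exact permutation tests used SciPy 1.17.1. Fits were tested on simulated data, where the share of unchanged genes among the calls was above the adjusted p threshold when all genes with at least 1 count were kept and close to or below it after edgeR's filterByExpr. The range of depth in each tissue is given with the results; within a tissue each dog has 1 library, so preparation error was not measured separately. The members and lists were chosen with earlier results of these data known. Genes named were the members, their copies, up to 5 passing genes per list by adjusted p, fixed partners (SCD, FABP5, LEPR, PLIN1, GPIHBP1) and the 3 genes most like each member; other listed genes were named after their values were seen. Alternatives were DESeq2 1.42.0, other scalings, filters and pseudocounts, no dog term and leaving out each dog. The authors' supplementary fold changes and p-values were not used, only symbols. From the lists, 1 gene is not reported here and is left out of their counts.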

Additional observations from a re-analysis of the deposited data

Results flagged for a closer look

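Within each tissue and for the within-dog ratio, 18 groups of 7 values were examined for a dog far from the others, and chance alone sets about 1 group in 20 apart. In 2 of them 1 dog stood apart, both for FABP4 and both because of the tumor library of dog F. The log2 level of FABP4 in that tumor was -1.33, with a gap to the next tumor of 0.648 of the whole range. The log2 ratio of tumor to bone in dog F was -10.30, with a gap of 0.592 of the range. No other member had a dog that stood apart in this way in either tissue. The log2 fold change of FABP4 without dog F was -4.05, against -4.57 with it.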

How the results depend on the processing

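All 5 members passed as lower under each of 11 alternatives, the filterByExpr filter included. In the fit with no replicate block, in which dogs were not paired, their log2 fold changes were -4.16 (FABP4), -4.94 (LEP), -2.02 (LPL), -1.23 (PPARG) and -2.44 (SCD5); the other lipid genes then gave 4 higher, and no pair of members changed its call. DESeq2 gave 18 lower and 6 higher lipid genes where edgeR gave 9 and 1; leaving out each dog, edgeR gave 6 (without dog D) to 9 lower and 1 to 2 higher, with 2 only without dog F. Over all genes DESeq2 called 1233 lower and 805 higher against 494 and 372. After filterByExpr, edgeR gave 10 lower and 1 higher lipid genes, and the marker lists under that filter are not given here. For LPL minus LEP the value was 1.10 with 0.5 CPM added and -0.0895 on variance-stabilized counts, where PPARG minus LEP was 0.636 and SCD5 minus LEP -0.388; the tumors held 6 to 21 LEP counts. Leaving out each dog, SCD5 minus LEP ran from 0.732 to 1.69. Against the adipocyte markers, r ran from 0.942 to 0.992 for LEP in bone, -0.580 to 0.204 for LPL in tumor -0.346 to 0.270 for SCD5 in tumor, 0.259 to 0.798 for FABP4 in bone, 0.120 to 0.729 for PPARG in bone, 0.170 to 0.683 for LEP in tumor, 0.383 to 0.714 for PPARG in tumor and -0.904 to -0.469 for SCD5 in bone with each dog left out; LEP in bone had an adjusted p of 0.0556 without dog A, C or D. Without the 2 dogs farthest from the median marker sum, r was 0.956 for LEP in bone, -0.0803 for LPL in bone and -0.693 for LPL in tumor. Against PLIN1 alone, SCD5 in tumor had r = 0.169 and FABP4 in tumor 0.508. Against the marker sum with each dog left out, r of FABP4 in tumor ran from 0.768 to 0.910. The cause of these changes was not tested. Leaving out dogs and averaging the markers' log2 levels were chosen, for the marker relations, after seeing the data, as was leaving out dogs for the lipid lists.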

Other observations

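The members were also compared with each other across the 7 dogs within each tissue. These pairs were looked at after the levels had been seen, so r is given as a description with no test. FABP4 and PPARG had r = 0.98 in bone and 0.14 in tumor, LEP and LPL 0.81 and 0.13, FABP4 and LEP 0.75 and 0.52, FABP4 and LPL 0.67 and -0.25, LEP and PPARG 0.65 and -0.35, and LPL and PPARG 0.64 and -0.13, with bone given first. In bone, SCD5 had r = -0.66 with LEP, -0.35 with LPL, -0.08 with FABP4 and 0.06 with PPARG, and in tumor -0.20, -0.14, -0.47 and 0.10 in the same order.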
